A study of Mus musculus with 24 samples.

Results

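The 7 genes described here are Ly6a, Ly6c1, Ly6c2, Ly6d, Ly6e, Ly6h and Ly6k, which encode small surface proteins of the Ly6 family and were taken by their symbols from 49568 genes listed in each of 2 expression tables. Ly6a encodes SCA1, the antigen on which the stromal cells of the study were sorted. After a filter on low values, 5 of the 7 genes could be tested among the sorted fractions and 6 of the 7 in the transwell experiment; Ly6h, with no more than 1 read in any library, passed in neither. All 7 lie on chromosome 15 of the mouse genome (GRCm38), in the order Ly6d (chr15:74762056-74763620), Ly6k (chr15:74796874-74799986), Ly6e (chr15:74955051-74959905), Ly6a (chr15:74994877-74998031), Ly6c1 (chr15:75044018-75048830), Ly6c2 (chr15:75108158-75111970) and Ly6h (chr15:75551268-75567255). Ly6e is on the plus strand and the others are on the minus strand.

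The sorted fractions came from livers of healthy mice aged 12 weeks, heterozygous for B6.129S4-Pdgfratm11(EGFP)Sor/J on a C57BL/6 background, in which green nuclei report Pdgfra. Mice A and E were male and mouse F was female, and each of the 3 mice gave all 4 fractions. Ductal cells (DCs) were sorted as EpCAM+, and stromal cells were split by PDGFRα and SCA1 into PDGFRα-SCA1+, PDGFRα+SCA1- and PDGFRα+SCA1+ populations. All 4 were negative for CD11b, CD45 and CD31. The transwell experiment used wild type C57BL/6 mice aged 8 to 12 weeks, with 2 replicates in each of 6 groups. DCs were taken freshly sorted (day 0), as organoids grown for 15 days in an expansion medium with growth factors (EM organoids), or as organoids grown for 15 days in a medium without those factors while sharing the medium with stromal cells (co-cultured organoids). SCA1+ mesenchymal cells (SCA1+Msc) were taken freshly sorted on SCA1 without a PDGFRα gate (day 0), or after expansion in culture and 15 days alone or beside the organoids. A membrane kept both cell types apart, and cells positive for CD31, CD11b or CD45 had been left out in sorting both. SCA1+Msc came from 2 littermates and DCs from 2 others, the labels do not tie the libraries to these animals, and p-values of the transwell experiment measure only the spread between these samples.

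Ly6 proteins fold into a compact domain held by disulfide bonds and are tethered to the outer membrane leaflet by a glycosylphosphatidylinositol (GPI) anchor. SCA1 is best known as a marker of mouse haematopoietic stem cells, and it also marks endothelial cells and fibroblasts of many organs. Its relatives Ly6c1 and Ly6c2 encode the Ly6C antigen, carried by endothelial cells and by monocytes and lymphocytes. Ly6d marks B-lineage progenitors and stratified epithelia, Ly6e is a widely expressed and interferon-responsive member, Ly6h is mainly a gene of the brain, and Ly6k is mainly a gene of the testis.

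Ly6a and the Ly6c genes are close copies, and the start of their coding sequences is shown because it sets how far their reads can be told apart. The first 150 coding bases were read from the GENCODE M21 transcripts on GRCm38. Capitals in Ly6c1 and Ly6c2 mark the bases that differ from Ly6a.
Ly6a: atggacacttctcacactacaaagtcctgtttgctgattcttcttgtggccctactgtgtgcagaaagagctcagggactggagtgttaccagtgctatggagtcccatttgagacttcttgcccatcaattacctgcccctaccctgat
Ly6c1: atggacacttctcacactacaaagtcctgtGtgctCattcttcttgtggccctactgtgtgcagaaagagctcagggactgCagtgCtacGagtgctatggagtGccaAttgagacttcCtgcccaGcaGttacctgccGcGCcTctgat
Ly6c2: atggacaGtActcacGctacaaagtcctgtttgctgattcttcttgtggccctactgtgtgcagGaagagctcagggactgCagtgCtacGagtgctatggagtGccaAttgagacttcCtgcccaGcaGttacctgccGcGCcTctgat
These stretches run on the minus strand over exons 1 to 2 of Ly6a (chr15:74996489-74997604), exons 2 to 3 of Ly6c1 (chr15:75047390-75048511) and exons 2 to 3 of Ly6c2 (chr15:75110548-75111667), each with the intron between them. Of the 150 bases, 14 differed from Ly6a in Ly6c1 and 16 in Ly6c2. Over the whole coding sequence, 82.0% of the aligned columns of Ly6a and Ly6c1 were identical, and 97.7% of those of Ly6c1 and Ly6c2, with an unbroken identical run of 188 bases. Ly6d, Ly6e, Ly6h and Ly6k had only 43.4% to 50.5% of aligned columns identical with Ly6a.

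The pair of qPCR primers with which the study measured Ly6a lies in the same stretch.
Ly6a forward primer: gctgattcttcttgtggccc
Ly6a reverse primer: aggggcaggtaattgatggg
The forward primer matched Ly6a and also Ly6c2 without a mismatch and had 1 mismatch in Ly6c1. The reverse primer matched Ly6a and had 4 mismatches in both Ly6c genes, but only 1 in Ly6i, a further sister gene in which the forward primer had 2. Reads were 50 bases long, and the distinct sequences of that length were taken from all transcripts of each gene. Of these, 19.0% in Ly6a, 32.8% in Ly6c1 and 14.5% in Ly6c2 also occurred in a transcript of another gene, mostly a sister gene. A read of such a sequence would be lost to the filter on mapping quality. No shared sequence was found in Ly6d or Ly6e. In Ly6k 32.7% were shared with Gm17189, an antisense gene on the other strand, from which reads without strand information cannot be told apart.

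The libraries held 19636174 to 25673544 counted reads among the fractions and 19303525 to 28075346 in the transwell experiment, as recovered from the values. In the DCs of both experiments the 6 listed ductal markers summed to 51721 to 68934 TPM, and in the PDGFRα+ fractions the 7 mesenchymal markers summed to 26731 to 53878 TPM. The PDGFRα-SCA1+ cells, which the labels also call mesenchymal, summed to 247 to 493 TPM on the mesenchymal list and to 3203 to 3893 TPM on the endothelial list of 8 genes, against no more than 59.0 TPM in the other fractions, although CD31 had been used to remove endothelial cells. Hepatocyte markers summed to 1722 to 6581 TPM in the same libraries, and to 5274 to 5772 TPM in the DCs of the same mice. Ductal markers summed to 4299 TPM in PDGFRα-SCA1+ cells of mouse E, against 76.9 and 321 TPM in mice A and F. The PDGFRα-SCA1+ cells are therefore called by their gate here. The labels name the SCA1+Msc of the transwell experiment as ductal cells, whereas their mesenchymal markers summed to 24494 to 44708 TPM, with endothelial markers at 193 to 347 TPM throughout and hepatocyte markers at 17482 to 22280.3 TPM at day 0 and at most 405 TPM after culture.

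Ly6a separated all 4 sorted fractions. In the values deposited by the authors it stood at 6.78, 32.9 and 20.5 (mice A, E and F, in this order throughout) in PDGFRα+SCA1- cells, at 71.3, 155 and 82.4 in DCs, at 1307, 952 and 1064 in PDGFRα+SCA1+ cells, and at 4969.5, 3018 and 4234 in PDGFRα-SCA1+ cells. No 2 fractions overlapped. Since the cells were sorted on the protein, the 55.2-fold ratio of means between PDGFRα+SCA1+ and PDGFRα+SCA1- cells checks the labels and is no finding. The DCs, which were sorted on EpCAM and not on SCA1, held 473 to 1305 Ly6a reads per library, so Ly6a RNA was measured in ductal cells too. By mean TPM, Ly6a was the 23rd most abundant gene in PDGFRα-SCA1+ cells and the 122nd in PDGFRα+SCA1+ cells, against rank 1672 in DCs.

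**Figure D1:**
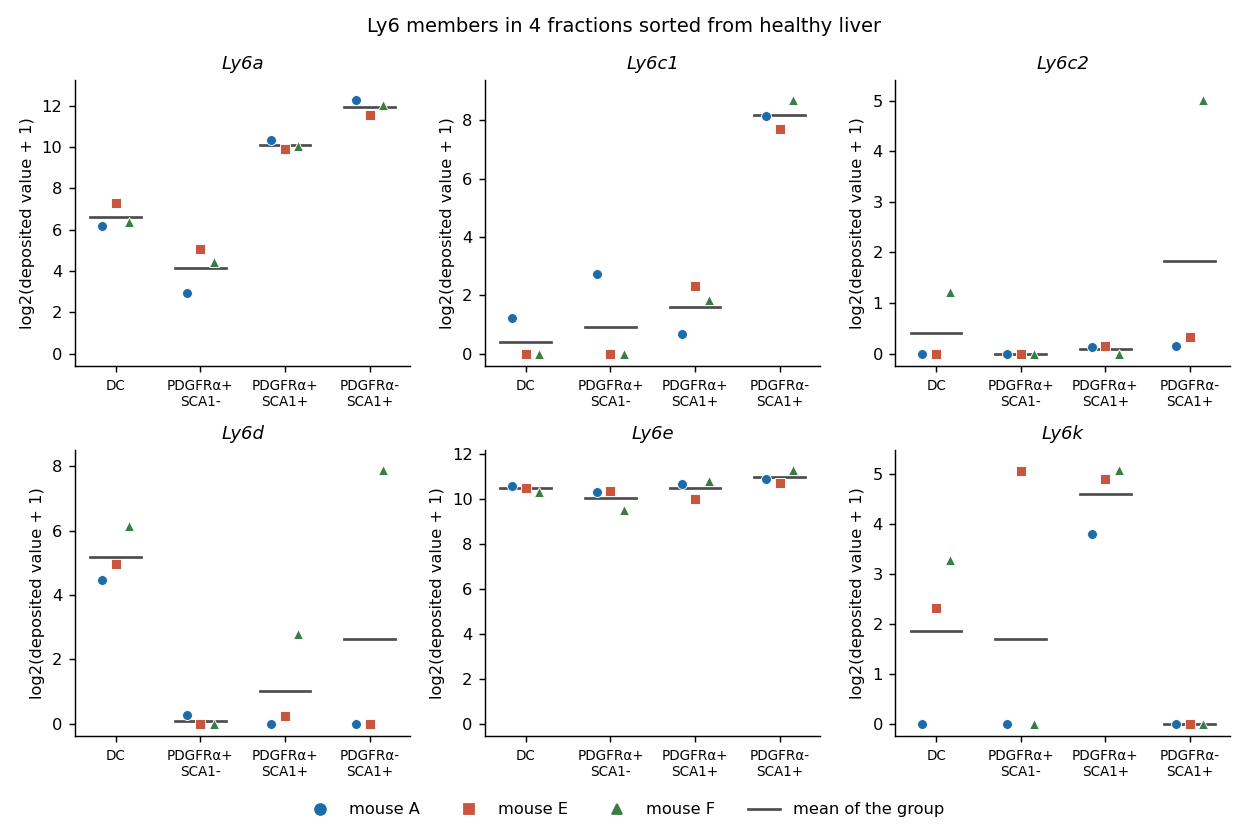
Points give log2(deposited value + 1) of each gene in each library of the 4 sorted fractions, by mouse, and bars the mean of 3 mice. Ly6a rises from PDGFRα+SCA1- to PDGFRα-SCA1+ cells with no overlap, Ly6c1 is high in PDGFRα-SCA1+ cells alone (207 to 415), Ly6e is high in every fraction (719 to 2482), and among PDGFRα-SCA1+ cells Ly6c2 and Ly6d stand high in mouse F only.

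Whether the SCA1 gate carries sister genes was asked first within the PDGFRα+ cells, where no sister gene was found to differ. Ly6c1, a close copy of Ly6a, was at 0.610, 3.97 and 2.56 in PDGFRα+SCA1+ cells, from 6 to 44 reads, and at 5.67, 0 and 0 in PDGFRα+SCA1- cells. The groups overlapped, and the log2 difference was 0.70 (SE 0.786, 95% interval -1.01 to 2.41, adjusted p = 0.803, limma). Ly6e, an abundant member, was at 1599.6, 1019.5 and 1745 against 1272, 1285 and 719. This difference of 0.43 (SE 0.273, interval -0.17 to 1.02, adjusted p = 0.606) was also within the spread. Of the 5 members tested, Ly6a alone passed the threshold, where 0.587% of all 17028 genes did.

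Ly6k was the member nearest to a difference across this gate. It was at 12.9, 28.7 and 32.7 in PDGFRα+SCA1+ cells and at 0, 32.2 and 0 in PDGFRα+SCA1- cells, so that mouse E was as high without SCA1 as with it. The log2 difference of 2.90 (SE 1.23, adjusted p = 0.388) did not pass, and without the PDGFRα+SCA1- library of mouse E it was 4.59 and passed (adjusted p = 0.0236). Ly6i is no member here, but of the genes aligned it was the most like Ly6a in coding sequence (86.4% of aligned columns identical). It held at most 18 reads in these libraries and did not pass (0.66, SE 0.788, adjusted p = 0.817, limma). Ly6d stood at 0, 0.185 and 5.95 against 0.212, 0 and 0, with at most 28 reads, and did not pass either (adjusted p = 0.896).

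The PDGFRα-SCA1+ cells, in contrast, carried Ly6c1 with Ly6a. Ly6c1 was at 286, 207 and 415 there, from 1861 to 4087 reads, against at most 5.67 in any other fraction, and the groups did not overlap. The log2 difference was 7.28 (SE 0.786, adjusted p = 4.26e-05) from PDGFRα+SCA1- cells and 6.58 (SE 0.786, adjusted p = 9.25e-05) from PDGFRα+SCA1+ cells, which share the SCA1 gate. Ly6a itself was higher than in PDGFRα+SCA1+ cells by 1.86 (SE 0.465, adjusted p = 0.0141), a call that was lost without PDGFRα-SCA1+ mouse A (adjusted p = 0.0538) or PDGFRα+SCA1+ mouse E (adjusted p = 0.0542). The endothelial markers moved with both genes, and their part in these differences was not tested. In bulk RNA, more cells of a type and more RNA per cell cannot be told apart.

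Reads of both genes within a library do not depend on its scaling. There were 9.61, 7.33 and 13.6 Ly6c1 reads for every 100 Ly6a reads in PDGFRα-SCA1+ cells, and 0.0648, 0.697 and 0.257 in PDGFRα+SCA1+ cells. Both SCA1+ fractions thus held many Ly6a reads (6316 to 32959) with very different Ly6c1 shares. The transwell SCA1+Msc, sorted on SCA1 without regard to PDGFRα, had 8.65 to 12.6 Ly6c1 reads per 100 Ly6a reads at day 0 and after culture, in the range of the PDGFRα-SCA1+ cells. Although these cells were sorted as CD31-, their endothelial markers stayed measurable in culture, with Pecam1 at 45.8 to 96.1 TPM and Cdh5 at 31.4 to 58.2 TPM in the 4 cultured libraries, and the part of such cells in the Ly6c1 reads was not tested.

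**Figure D2:**
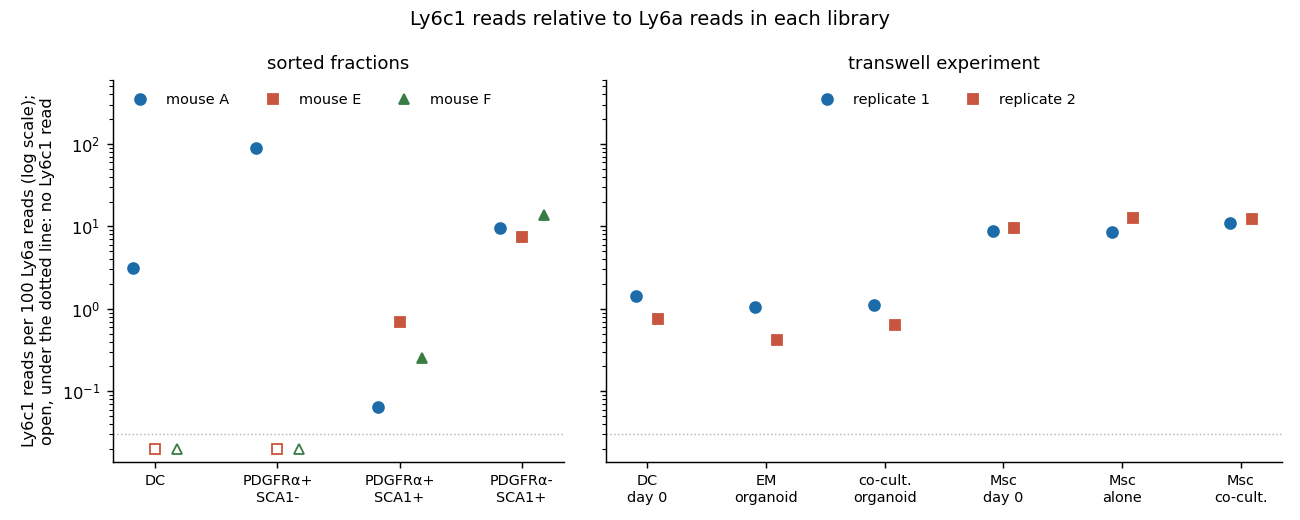
Points give Ly6c1 reads per 100 Ly6a reads (log axis) in each library of both experiments, and open points under the dotted line are libraries with no Ly6c1 read. PDGFRα-SCA1+ cells and all SCA1+Msc libraries lie between 7.33 and 13.6, PDGFRα+SCA1+ cells at 0.697 or below, and organoids between 0.419 and 1.11; the high point of PDGFRα+SCA1- mouse A rests on 51 Ly6c1 and 57 Ly6a reads.

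Ly6e was the evenly spread member. It stood at 1866, 1674 and 2482 in PDGFRα-SCA1+ cells and at 1535, 1442 and 1275 in DCs, and ranked between 45th and 116th by mean TPM in all 4 fractions. Compared with PDGFRα+SCA1- cells, it was higher in the PDGFRα-SCA1+ cells by 0.91 on the log2 scale (SE 0.273, adjusted p = 0.033), a call lost without PDGFRα-SCA1+ mouse A or F or PDGFRα+SCA1- mouse F (adjusted p = 0.0636, 0.113 and 0.108). In the remaining 5 comparisons it did not pass. With Ly6a, Ly6c1 and Ly6e, 3 of the 5 members rose between these fractions, where 21.5% of all genes passed in either direction. The difference of Ly6a was fixed by the gate. Between both SCA1+ fractions Ly6a and Ly6c1 were higher in the PDGFRα- cells and Ly6k lower, where 18.8% of all genes passed.

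Ly6k was at 0 in all 3 PDGFRα-SCA1+ libraries. Its mean of 24.8 ± 10.4 (SD, n = 3) in PDGFRα+SCA1+ cells was at least 41.5-fold higher than the mean of the floor of 3 reads per library. The test passed (adjusted p = 0.0204) but was lost without any of the 3 PDGFRα-SCA1+ libraries or without PDGFRα+SCA1+ mouse E or F (adjusted p = 0.0531 to 0.0669). The Ly6k reads are uncertain because of the antisense gene.

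Ly6c2 and Ly6d were not general features of either SCA1+ fraction. Ly6c2 was at 31.3 in PDGFRα-SCA1+ cells of mouse F, from 638 reads, and at 1.33 in the DCs of the same mouse, while the other 10 libraries held 5 reads at most. Ly6d was at 20.9, 30.4 and 70.2 in DCs, at 236 in PDGFRα-SCA1+ cells of mouse F, from 1099 reads, and at 0 in the same fraction of mice A and E. Some leukocyte markers were highest in that library. Ptprc, the gene of CD45, was at 60.8 TPM there against 3.28 and 0.190 TPM in mice A and E, Cd79a of B cells at 109 against 29.2 and 49.0 TPM, and Cd3e of T cells at 36.9 against 15.3 and 20.7 TPM. Lyz2 of myeloid cells went the other way, at 20.2 against 155 and 211 TPM, and 4 of the 10 listed markers were at 0 in mouse F against 1 and 2. The sum over the 10 was 281 TPM in mouse F, between 253 TPM in mouse A and 298 TPM in mouse E, so the list as a whole did not set this library apart. The part of such cells in Ly6c2 and Ly6d was not tested.

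Against DCs, Ly6d was lower in PDGFRα+SCA1- cells by 5.10 on the log2 scale (SE 1.69, adjusted p = 0.0398), although the call was lost whenever any of the 6 libraries compared was left out. In PDGFRα+SCA1+ cells it was lower by 4.18 (SE 1.69, adjusted p = 0.0975), which passed with the mouse as a block (adjusted p = 0.0491). In PDGFRα-SCA1+ cells it did not differ beyond the spread (-2.56, adjusted p = 0.329), and without mouse F the difference was -5.19 and passed (adjusted p = 0.00124). Ly6d reached the minimum value of 1 in all DC libraries and elsewhere only in mouse F, in both SCA1+ fractions. It was thus tested only through the DCs, the group where it was high, and its calls against DCs are descriptions only. By its values, the DCs were the fraction with Ly6d in every mouse. Ly6a was higher than in DCs in PDGFRα+SCA1+ cells and Ly6a and Ly6c1 were higher in PDGFRα-SCA1+ cells, and Ly6a and Ly6d were lower in PDGFRα+SCA1- cells, where 23.8%, 22.8% and 28.8% of all genes passed.

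Ly6a rose with growth as organoids in cells that had not been sorted on SCA1. Ly6a was at 229.8 and 194 TPM in DCs at day 0, at 612 and 621 TPM in EM organoids, and at 5102 and 4465 TPM in co-cultured organoids, and the groups did not overlap. The log2 difference from day 0 was 1.54 (SE 0.133, adjusted p = 1.68e-05) for EM organoids and 4.49 (SE 0.133, adjusted p = 4.4e-08) for co-cultured organoids, which corresponds to 2.91-fold and 22.6-fold ratios of means. Co-cultured organoids exceeded EM organoids by 2.95 (SE 0.133, adjusted p = 2.3e-06). By mean TPM Ly6a went from rank 677 in DCs to rank 185 in EM organoids and rank 14 in co-cultured organoids, above its level in the SCA1+Msc sorted for it (722 to 1209 TPM).

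Mesenchymal markers were near 0 in those organoids. All 7 together summed to 2.89 and 17.7 TPM in the co-cultured and to 2.02 and 7.78 TPM in the EM organoids, against 24494 TPM or more in every SCA1+Msc library. The endothelial list summed to 12.8 and 14.7 TPM in the co-cultured organoids, with 5 of 8 genes at 0. The mesothelial list followed the same order as Ly6a, at 88.8 and 109 TPM in DCs, at 297 and 326 TPM in EM organoids and at 4502 and 3879 TPM in co-cultured organoids. Nearly all of it was Msln, which encodes mesothelin, at 4500.2 and 3879 TPM in co-cultured organoids, where 4 of the 6 listed genes were at 0. Leukocyte markers were also higher in co-cultured (210 and 106 TPM) than in EM organoids (34.5 and 32.4 TPM), with Ptprc at 0.0610 TPM or less. The part of these in the Ly6a levels was not tested. Both organoid groups differed in medium as well as in the presence of stromal cells, so that these cannot be told apart.

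**Figure D3:**
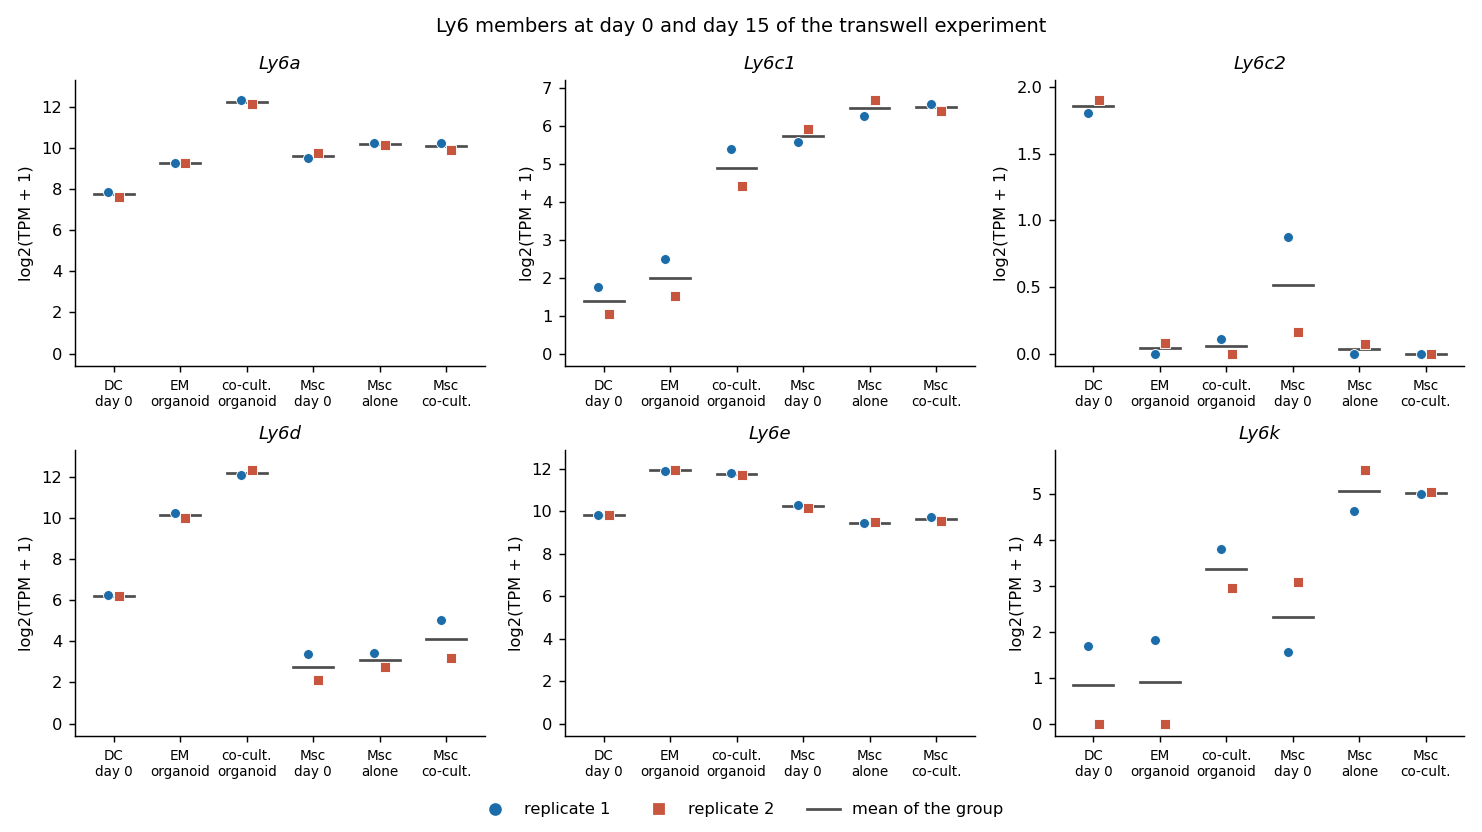
Points give log2(TPM + 1) of each gene in each library of the 6 transwell groups, by replicate, and bars the mean of 2 replicates. Ly6a and Ly6d rise stepwise from DCs at day 0 to EM and co-cultured organoids (Ly6d from 72.8 to 5169 TPM), Ly6e rises in both kinds of organoid, and Ly6c1 is highest in SCA1+Msc at 46.2 to 101 TPM.

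Ly6d rose even more. It stood at 75.1 and 72.8 TPM in DCs, at 1220.5 and 1035 TPM in EM organoids and at 4306 and 5169 TPM in co-cultured organoids. The log2 differences from day 0 were 3.91 (SE 0.547, adjusted p = 0.000332) and 5.98 (SE 0.547, adjusted p = 2.6e-05). It reached rank 15 in co-cultured organoids, next to Ly6a. The groups did not overlap between both kinds of organoid, yet the difference of 2.07 (adjusted p = 0.0366) lost its call without any of the 4 organoid libraries (adjusted p = 0.122 to 0.171).

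Ly6e rose alike in both media. It was at 894 and 899 TPM in DCs, at 3779 and 3899.5 TPM in EM organoids and at 3496 and 3343 TPM in co-cultured organoids. The log2 differences from day 0 were 2.10 (SE 0.0796, adjusted p = 2.12e-07) and 1.93 (SE 0.0796, adjusted p = 3.13e-07), and that between the organoids was -0.17 (interval -0.35 to 0.01, adjusted p = 0.227). After quantile normalization the last was -0.82 and passed (adjusted p = 0.000872). Ly6e was the 10th most abundant gene of EM organoids.

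Ly6c1 rose in co-cultured organoids, as Ly6a did, while its difference in EM organoids did not pass. It was at 2.36 and 1.05 TPM in DCs, at 4.60 and 1.87 TPM in EM organoids and at 40.5 and 20.2 TPM in co-cultured organoids. The rise in co-cultured organoids was 3.50 (SE 0.407, adjusted p = 0.000116), while that in EM organoids was 0.61 (SE 0.407, interval -0.30 to 1.53, adjusted p = 0.262). There were 1.43 and 0.751 Ly6c1 reads per 100 Ly6a reads in DCs, 1.05 and 0.419 in EM organoids and 1.11 and 0.631 in co-cultured organoids, and the ranges of the 3 groups overlapped.

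Ly6c2 fell from 2.5 and 2.74 TPM in DCs, that is 59 and 47 reads, to at most 2 reads in any organoid library. The log2 difference was -1.82 (adjusted p = 0.000935, limma) in EM and -1.80 (adjusted p = 0.00104) in co-cultured organoids. Ly6c2 reached the minimum TPM of 1 in the DC libraries alone, so it was tested only through the group where it was high. It could thus only come out as lower than in DCs, and these calls are descriptions only. The leukocyte markers, among whose cells Ly6C is known, summed to 308 and 216 TPM in DCs at day 0, to 34.5 and 32.4 TPM in EM organoids and to 210 and 106 TPM in co-cultured organoids, and to 272 to 616 TPM in SCA1+Msc, in which Ly6c2 had 14 reads at most. All of these cells had been sorted as negative for CD45 and CD11b, and the part of leukocytes in Ly6c2 was not tested. Ly6k was at 2.24 and 0 TPM in DCs, at 2.54 and 0 TPM in EM organoids and at 12.9 and 6.72 TPM in co-cultured organoids. Its rise of 2.53 (SE 0.762, adjusted p = 0.0237) from day 0 to the co-cultured organoids was lost without replicate 1 of the co-cultured organoids (adjusted p = 0.135) or replicate 2 of the DCs (adjusted p = 0.174).

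Of the 6 members tested, 3 rose and 1 fell in EM organoids, where 44.4% of all 18136 genes passed in either direction. In co-cultured organoids 5 rose and 1 fell, where 42.3% passed, and between both kinds of organoid 3 were higher in co-culture, where 12.9% passed. The comparisons with day 0 share the same DCs. In both of these the member that fell was Ly6c2, which passed the filter through the DCs alone.

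In SCA1+Msc, culture changed Ly6a little. It was at 722 and 846 TPM at day 0, at 1209 and 1116 TPM after culture alone and at 1206 and 957 TPM after co-culture. Both cultured groups lay above day 0 without overlap, by 0.57 (SE 0.133, adjusted p = 0.00657) and 0.46 (SE 0.133, adjusted p = 0.0197) on the log2 scale. The latter call was lost without replicate 1 of the co-cultured SCA1+Msc (0.29, adjusted p = 0.15) or replicate 1 at day 0 (0.34, adjusted p = 0.111). Summed hepatocyte markers were at 17482 TPM or more at day 0 and at 405 TPM or less after culture. Summed mesenchymal markers were at 25969 TPM or less at day 0 and at 39175 TPM or more after culture, and smooth muscle markers at 583 to 795 and at 3166 to 3935 TPM. The part of these shifts in the Ly6 changes was not tested. The presence of organoids made no detectable difference to Ly6a in SCA1+Msc (-0.11, interval -0.41 to 0.19, adjusted p = 0.972).

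**Figure D4:**
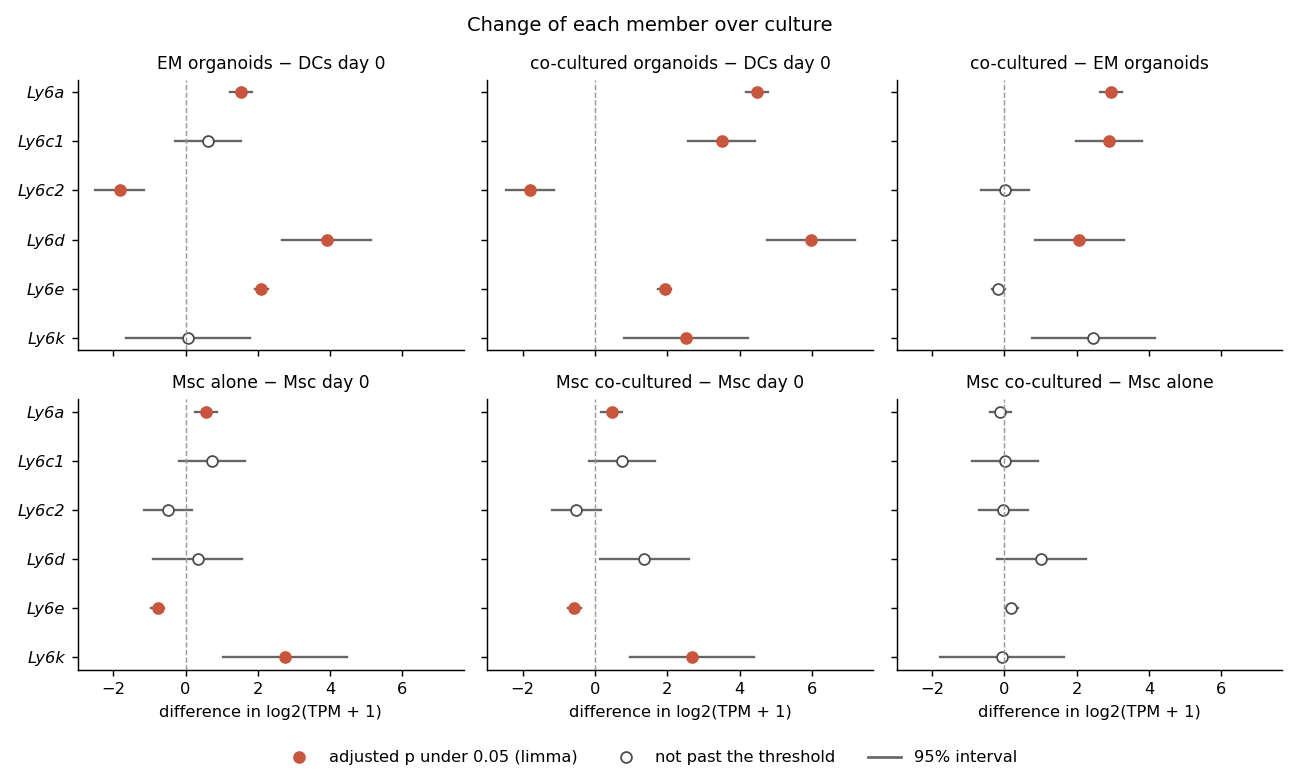
Points give the difference in log2(TPM + 1) of each gene in 6 comparisons of the transwell experiment with 95% intervals from limma, filled where the adjusted p was under 0.05. The Ly6a differences of organoids (1.54 and 4.49) lie above those of SCA1+Msc (0.57 and 0.46), Ly6e rises in organoids and falls in SCA1+Msc, and no point is filled between co-cultured and lone SCA1+Msc.

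Ly6e went the other way in SCA1+Msc. It fell from 1243 and 1138 TPM at day 0 to 682 and 713 TPM after culture alone (-0.77, SE 0.0796, adjusted p = 5.59e-05) and to 854 and 743 TPM after co-culture (-0.58, SE 0.0796, adjusted p = 0.000332). Ly6k rose from 1.96 and 7.44 TPM to 23.6 and 44.9 TPM alone (2.75, SE 0.762, adjusted p = 0.0154) and to 30.9 and 31.7 TPM in co-culture (2.69, SE 0.762, adjusted p = 0.0174). Both Ly6k calls were lost without replicate 1 at day 0. The call alone was also lost without replicate 2 of the lone SCA1+Msc, and the call in co-culture without either co-cultured replicate. Ly6c1 was at 46.2 and 58.8 TPM at day 0, at 75.2 and 101 TPM alone and at 94.1 and 83.3 TPM in co-culture, and its differences of 0.73 and 0.75 did not pass (adjusted p = 0.179 and 0.169).

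Ly6d was low in SCA1+Msc, at 3.36 to 9.63 TPM at day 0 and alone and at 31.6 and 8.19 TPM in co-culture. The difference of 1.36 from day 0 to co-culture did not pass (adjusted p = 0.0717), but did so without replicate 2 of the co-culture (2.28, adjusted p = 0.00573) or replicate 1 at day 0 (1.99, adjusted p = 0.0278). Ductal markers summed to 1192 and 2539 TPM in SCA1+Msc at day 0 and to 215 and 234 TPM alone. In co-culture they summed to 554 and 273 TPM, higher in replicate 1, as Ly6d was. At day 0 and alone they were higher in replicate 2, whereas Ly6d was higher in replicate 1. The part of ductal cells in the Ly6d levels of SCA1+Msc was not tested. In SCA1+Msc 2 members rose and 1 fell both alone, where 44.8% of all genes passed, and in co-culture, where 43.3% did. Between co-cultured and lone SCA1+Msc 0 of 6 passed in limma, 1 of them (Ly6e, 0.19) had an unadjusted p under 0.05, and 0.127% of all genes passed.

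At day 0 the SCA1+Msc exceeded the DCs in Ly6c1 by 4.34 (SE 0.407, adjusted p = 2.3e-05) and in Ly6e by 0.41 (SE 0.0796, adjusted p = 0.00223), the latter only 0.05 after quantile normalization (adjusted p = 0.749). Ly6d was lower by 3.48 (SE 0.547, adjusted p = 0.000616) and Ly6c2 by 1.34 (SE 0.3, adjusted p = 0.00487), and Ly6a, which the gate fixed, was higher by 1.88. Thus 3 members were higher and 2 lower, where 46.1% of all genes passed. Ly6c2 passed the filter through the DCs alone and could only come out as lower.

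The change over culture differed between both cell types for several members. It was larger in DCs grown in EM than in lone SCA1+Msc by 0.97 for Ly6a (SE 0.188, adjusted p = 0.00509), 2.87 for Ly6e (SE 0.113, adjusted p = 1.45e-06) and 3.57 for Ly6d (SE 0.774, adjusted p = 0.00878). Between co-cultured DCs and co-cultured SCA1+Msc it was larger by 4.03 for Ly6a (SE 0.188, adjusted p = 2.4e-06), 2.75 for Ly6c1 (SE 0.576, adjusted p = 0.00686), 4.61 for Ly6d (SE 0.774, adjusted p = 0.00224) and 2.51 for Ly6e (SE 0.113, adjusted p = 2.18e-06). Across all genes 26.8% and 28.3% passed these tests of the difference in change. For Ly6a the SCA1+Msc started from a level set by the SCA1 gate and the DCs did not, which these tests do not account for.

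Beyond the 7 members, 42 of 45 listed genes of the wider Ly6/uPAR family were in the tables, members included, and 26 could be tested in the transwell experiment. In co-cultured organoids 15 of the 26 rose and 4 fell from DCs at day 0 (73.1%, median 1.51). Over all genes 42.3% passed, with a median of 0.00. Lypd8, Slurp1 and Slurp2 were at 0 in all DC and EM libraries and could only come out as higher in co-cultured organoids. The filter let in such genes through the group where they were high, so this share and median are descriptions only. Without replicate 1 of the co-cultured organoids 7 rose, and without either DC replicate 2 fell. Lypd8, a protein of the colonic epithelium that binds flagellated bacteria, was at 1481 and 1158 TPM there (17013 and 11209 reads), at 0 in all DC and EM libraries, and at 1 read at most in SCA1+Msc. This was at least 4092-fold above the floor of 3 reads in DCs. Psca, prostate stem cell antigen, was at 200.4 and 94.1 TPM in co-cultured organoids and at no more than 1.63 TPM elsewhere in the transwell experiment (log2 difference from DCs 6.58, adjusted p = 1.39e-05). Ly6g6e reached 39.8 and 21.4 TPM against 2.64 TPM or less (3.55, adjusted p = 0.00128).

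**Figure D5:**
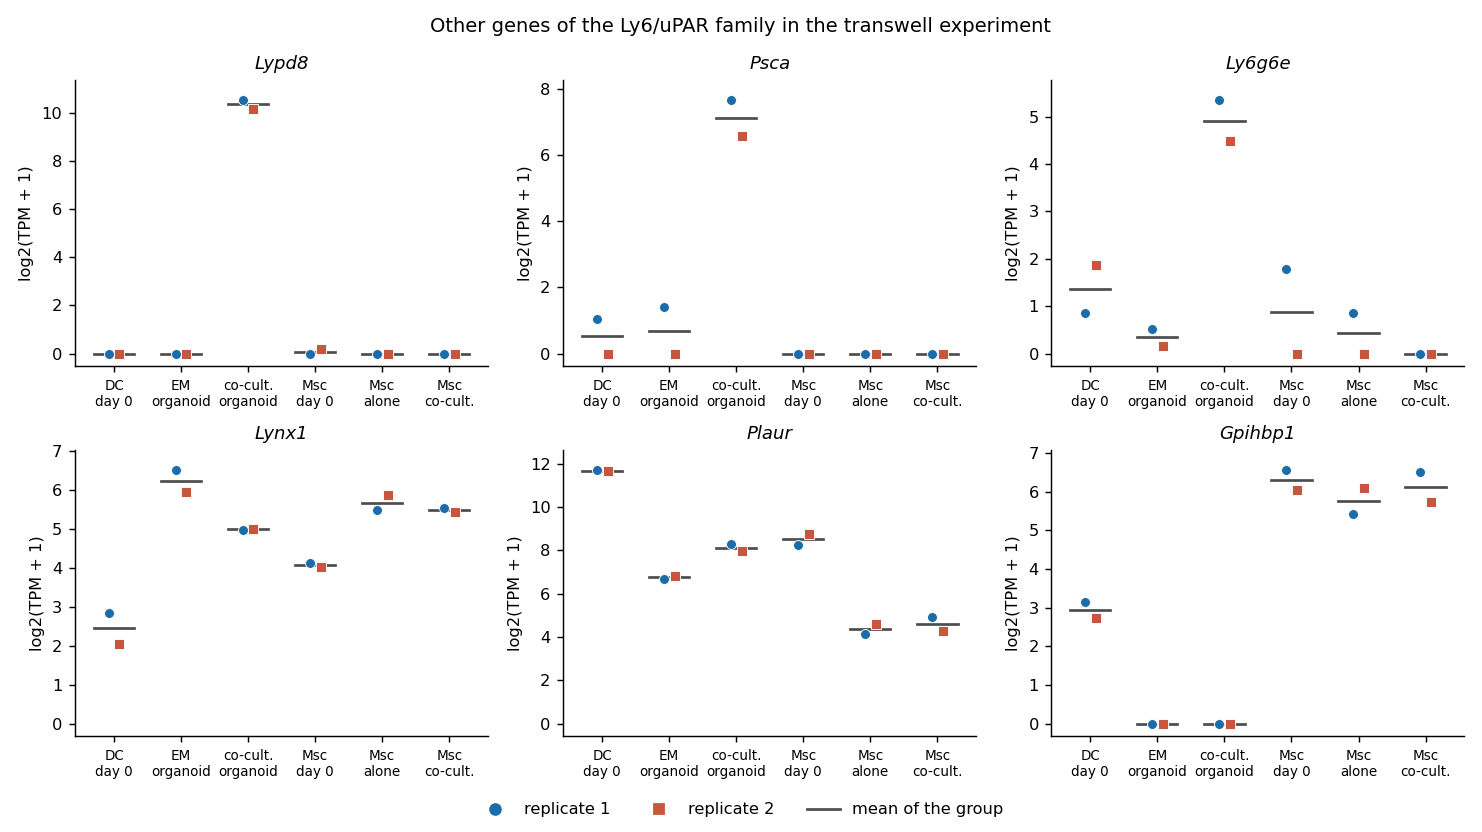
Points give log2(TPM + 1) of 6 further family genes in each library of the transwell experiment, by replicate, and bars the mean of 2 replicates. Lypd8, Psca and Ly6g6e stand high in co-cultured organoids, Lynx1 rises in all cultured groups, Plaur falls from 3252 TPM or more in DCs at day 0, and Gpihbp1 is at 0 in all organoid libraries.

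Between both kinds of organoid 11 of 26 family genes were higher in co-culture and 1 was lower (46.2%, median 1.38, against 12.9% called and a median of -0.13 over all genes), and 4, 6 and 7 were higher without replicate 1 or 2 of the co-cultured or replicate 2 of the EM organoids. The gene lower in co-culture was Lynx1. Lypd8, Slurp1, Slurp2 and Lypd6b were at 0 in both EM libraries and could only come out as higher, so this share is a description only. In EM organoids 4 rose and 4 fell from day 0, which at 30.8% was below the 44.4% over all genes. Plaur, the urokinase receptor, fell from 3361 and 3252 TPM in DCs to 100.5 and 113 TPM in EM organoids (-4.94, SE 0.245, adjusted p = 7.36e-07) and to 309.6 and 253 TPM in co-cultured organoids (-3.56, SE 0.245, adjusted p = 4.63e-06). Lynx1, a modulator of nicotinic receptors, rose from 6.21 and 3.15 TPM to 90.7 and 61.2 TPM in EM organoids (3.79, SE 0.279, adjusted p = 6.48e-06). In SCA1+Msc Plaur fell as well, by 4.13 alone (adjusted p = 2.03e-06), and 4 family genes rose and 3 fell alone, 3 rose (1 without replicate 1 of the co-culture) and 3 fell (5 without replicate 2 at day 0) in co-culture. These shares of 26.9% and 23.1% were below the 44.8% and 43.3% over all genes.

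Among the sorted fractions 18 family genes could be tested. In PDGFRα-SCA1+ against PDGFRα+SCA1- cells 7 rose and 1 fell (44.4%, median 1.05, against 21.5% called and a median of 0.41 over all genes). The risen genes include Ly6a, whose difference the SCA1 gate fixed. Ly6g6d was at 0 in all PDGFRα+ libraries and could not come out as lower, so this share and median are descriptions only. Gpihbp1, which carries lipoprotein lipase across the capillary endothelium, was at 1157, 975 and 547 in PDGFRα-SCA1+ cells and at most 7.44 in any other library (log2 difference 8.60, SE 0.728, adjusted p = 6.73e-06). Cd59a, an inhibitor of the complement membrane attack complex, was at 803, 989.7 and 665 there against 122 or less elsewhere (3.91, SE 0.430, adjusted p = 4.84e-05). Within the PDGFRα+ cells, 1 of the 18 differed across the SCA1 gate, where 0.587% of all genes did. This was Ly6a, and without PDGFRα+SCA1- mouse E Ly6k was called as well. Between both SCA1+ fractions 5 were higher in the PDGFRα- cells and 2 lower, which were Ly6k and Lynx1 (1 was lower without any one of the libraries compared other than PDGFRα+SCA1+ mouse A). Plaur, at 278, 465 and 699 against 205, 167 and 348, passed with the mouse as a block (0.97, adjusted p = 0.0348) and not without it.

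Genes of GPI anchor synthesis, without which none of these proteins would be tethered, rose in culture in both cell types. Of 28 genes tested, 20 rose and 0 fell in EM organoids (median 1.47), 18 rose and 1 fell in co-cultured organoids (median 1.14), and 18 rose and 1 fell in lone and 19 rose and 1 fell in co-cultured SCA1+Msc (medians 1.21 and 1.13), all from day 0. Over all genes 44.4%, 42.3%, 44.8% and 43.3% passed in these comparisons, with medians of 0.12, 0.00, 0.19 and 0.17. The gene lower in co-cultured organoids was called in none of the 4 fits that left out an organoid or DC library. Among the 6 comparisons of sorted fractions, at most 1 of the 28 passed, where 0.587% to 28.8% of all genes did.

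The interferon-response list was set beside Ly6a because Ly6a is known to respond to interferon. It moved with Ly6a in some comparisons and not in others, and the part of interferon in the Ly6a levels was not tested. In PDGFRα-SCA1+ cells 17 of 24 genes were higher than in PDGFRα+SCA1- cells (11 without mouse F), and 18 and 23 were higher than in PDGFRα+SCA1+ cells and DCs, where 21.5%, 18.8% and 22.8% of all genes passed. Across the SCA1 gate within PDGFRα+ cells 0 of 24 passed, where 0.587% of all genes did. In EM organoids, where Ly6a rose, 17 fell (10 without replicate 1 of the DCs, 11 without replicate 1 of the EM organoids) and 0 rose, against 44.4% of all genes called in either direction. In co-cultured organoids 9 rose and 7 fell, against 42.3% called over all genes; 3, 5 and 3 rose without replicate 1 or 2 of the organoids or replicate 2 of the DCs, and 4 fell without replicate 2 of the organoids or without either DC replicate. Between both kinds of organoid 13 were higher in co-culture (8, 7 and 8 without replicate 1 or 2 of the co-cultured or replicate 1 of the EM organoids), where 12.9% of all genes passed. In SCA1+Msc 20 fell alone and 19 in co-culture, and 0 rose, where 44.8% and 43.3% of all genes passed, while Ly6a rose slightly.

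The genes most like Ly6a were found by the root mean square difference of centred log2 values over the 12 libraries of each experiment, as a description. Among the fractions they were Ggta1 (1.33), Tcf15 (1.40), Ppm1f (1.52), Car7 (1.55) and Gmpr (1.60). Ggta1, an enzyme that adds galactose to cell surface glycans, was at 150.3 ± 10.7 (SD, n = 3) in PDGFRα-SCA1+ cells and at 8.71 ± 2.56 in PDGFRα+SCA1+ cells. In the transwell experiment they were Sqrdl (0.493), S100a6 (0.493), Gsdmd (0.512), Stom (0.525) and Gpr137b (0.537). S100a6, a calcium-binding protein, was at 302 ± 50.3 TPM (SD, n = 2) in DCs, at 910.2 ± 112 TPM in EM organoids and at 6793 ± 28.5 TPM in co-cultured organoids. The lists of both experiments had no gene in common.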

How the data were processed

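RNA of the sorted or cultured cells was amplified by Smart-seq2 and sequenced as single reads of 50 bases. The authors aligned them with STAR 2.5.0a to GRCm38, kept reads of mapping quality 20 or more with SAMtools, counted them per gene with featureCounts 1.6.0 (version per the labels), without strand, and scaled by exon length. Poor mapping of near-identical copies lowers the levels of Ly6a and the Ly6c genes.

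RPKM were deposited by the authors for the transwell experiment (reads scaled by exon length and library size), which were divided by their sum in each library to give TPM, which sum to the same total in each library. For the sorted fractions the deposited values are named TPM by the authors but do not share 1 sum, because the column totals were reused along the rows. This scales each value by a factor of 0.722 to 1.39 that changes from gene to gene and library to library. Deposited values were tested as they are, and TPM with this undone were an alternative and gave levels between genes, ranks and marker sums. In the table of fractions, 4 columns of means were not used.

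Groups were compared on log2(value + 1) with limma 3.58.1 in R 4.3.3, with 1 mean for each group over all 12 libraries of an experiment, an intensity trend, two-sided tests and Benjamini-Hochberg adjustment over all genes tested, called at an adjusted p under 0.05. Genes needed a value of 1 or more in at least 3 libraries (fractions) or 2 (transwell). As a group held that many libraries, some genes were tested only through the group where they were high. A log2 difference with this pseudocount understates the change of low genes. Intervals are 95% intervals of the fit, and floors of 3 reads cover counting error only. Read numbers were recovered from values and GENCODE M21 exon lengths. The fit was tested on simulated data with 200 changed genes. Tables used pandas 2.3.3 and numpy 2.4.6 and plots matplotlib 3.10.9, in Python 3.11.15.

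The mouse pairs the fractions, since each mouse gave all 4 (correlations of deviations from the group means were 0.00 to 0.10). It was added as a block as an alternative, as was the replicate number of the transwell experiment. Named are the 7 members, family genes past the threshold, the 5 genes most like Ly6a and the markers beside results. Members, gene lists and markers were chosen with earlier results of these data known.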

Additional observations from a re-analysis of the deposited data

Results flagged for a closer look

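Of 26 family genes tested, the change over culture differed between DCs and SCA1+Msc in a test of the difference itself for 8 with EM organoids against lone SCA1+Msc and for 14 with both cell types co-cultured. These are 30.8% and 53.8%, against 26.8% and 28.3% of all genes, so that the first share is near that over all genes. The second includes Lypd8, Slurp1 and Slurp2, which held reads in co-cultured organoids and were at 0 in DCs at day 0 and in co-cultured SCA1+Msc. Both include Ly6c2, which passed the filter through DCs at day 0 alone. Such differences were largely set by the filter, so these shares cannot show an excess in the family. Values are differences of log2 changes, DCs less SCA1+Msc, from limma. Both comparisons share the day 0 libraries of each cell type, and the SCA1 gate set the Ly6a level at day 0 in SCA1+Msc but not in DCs.

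For DCs in EM less SCA1+Msc alone, the difference was 0.97 for Ly6a, 3.57 for Ly6d, 2.87 for Ly6e and -1.33 for Ly6c2 (adjusted p = 0.0445). The Ly6c2 call was lost without either EM organoid replicate, without either lone SCA1+Msc replicate and without replicate 2 of SCA1+Msc at day 0 (adjusted p = 0.0852 to 0.109). Among other family genes it was -2.39 for Gpihbp1, -3.53 for Ly6g5b, 3.42 for Ly6g6c and 2.19 for Lynx1.

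For both cell types in co-culture, the difference was 4.03 for Ly6a, 2.75 for Ly6c1, 4.61 for Ly6d, 2.51 for Ly6e and -1.28 for Ly6c2 (adjusted p = 0.0495). This Ly6c2 call was lost without either replicate of either co-cultured group and without replicate 2 of SCA1+Msc at day 0 (adjusted p = 0.103 to 0.132). Among other family genes it was 10.44 for Lypd8, 6.58 for Psca, 4.44 for Ly6g6e, 3.78 for Ly6g6c, 2.13 for Slurp2, 2.09 for Slurp1, 1.96 for Lypd6b, -1.20 for Cd59a and -2.75 for Gpihbp1.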

How the results depend on the processing

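Over 84 results of the members, 1078 values were computed under alternatives, and none changed the direction of a called result. With other settings, 611 values kept their side of the threshold, 24 lost a call and 9 gained one. With 1 library left out these were 389, 39 and 6. The Ly6a difference of EM organoids from DCs ranged from 1.42 to 1.66 and that of co-cultured organoids from 4.37 to 4.61 with 1 library left out. Ly6e between PDGFRα-SCA1+ and PDGFRα+SCA1- cells (0.91) lost its call without the intensity trend, without a filter or with only the groups compared, and ranged from 0.63 to 1.05 with 1 library left out.

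With the mouse as a block, Ly6d between PDGFRα+SCA1+ cells and DCs became called in limma (-4.18, adjusted p = 0.0491), and no other member of the fractions changed its call. Among the fractions Ly6d was tested only through the DCs, where it was high. The transwell replicates share only a number (correlations of -0.02 to 0.03). With it as a block, Ly6d in co-cultured SCA1+Msc was called (1.36, adjusted p = 0.0357) and both Ly6c2 differences in culture change lost their call (adjusted p = 0.0594 and 0.0646).

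Counts over all genes moved most between PDGFRα+SCA1+ and PDGFRα+SCA1- cells, from 100 to 4 with only the groups compared and to 6 to 392 with 1 library left out, and between co-cultured and lone SCA1+Msc, from 23 to 0 and, without a filter, to 51. With only the groups compared, 3658 calls between PDGFRα-SCA1+ and PDGFRα+SCA1- cells became 2173, and 4054 between PDGFRα+SCA1+ cells and DCs became 6921. With 1 library left out, 2348 calls between both kinds of organoid became 1093 to 1310. The cause was not tested. Quantile normalization moved the median of all genes by -0.36 to 0.34. Ly6h was not detectable above 1 read at this depth, and values of a few reads, as for Ly6c2 and Ly6k in many libraries, allow no firm comparison.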
